A study of Drosophila melanogaster with 13 samples.

Results

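The sites described here are positions of the fly genome at which reads are listed for the control flies of the outbred Mix population and for neither of its selected populations. They were found separately in both selection experiments, on the arms X, 2L, 3L and 3R, as positions present in the deposited control table and absent from the assimilated and from the nonassimilated table. In experiment 1 there were 67462 such control-only sites among 1087367 sites listed for control and 1136541 sites listed in any of the 3 tables. In experiment 2 there were 102553 among 998421 sites listed for control and 1033411 listed in any table. The control-only sites thus made up 6.20% and 10.3% of the sites listed for control. Another 870151 sites of experiment 1 and 783234 sites of experiment 2 were listed in all 3 tables, and these serve as the comparison below. Membership follows from which tables list a site, and the control table holds the P0 and control reads, so the P0 and control values of these sites are a description without a test.

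Mix is an outbred fly population made by admixing the inbred lines D208, D437, D820 and D907 of the Drosophila Genetic Reference Panel, and the study asked which genome changes accompany the evolution of ectopic wing veins (EV) in it. The ancestral flies (P0) were the admixed population at the start of each experiment, and the second experiment was started from the same population after further generations. Control flies were reared at the standard temperature without selection. Assimilated flies came from lines that had been selected for EV after a heat shock of the pupae and were then selected for EV without heat shock, while nonassimilated flies were derived from the control line and selected for EV without any heat shock. DNA of 100 adult females per population was sequenced as 1 pool, 8 Mix pools in all, so no spread between replicate populations was measured. Each table gives a pair of allele read counts per site for P0 and for 1 derived pool, read here as reference and then alternative allele, the order in which the caller writes them. Allele frequency below means the second count divided by their sum.

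In an admixed population a founder chromosome carries many variants side by side, and neighbouring variants of 1 founder haplotype rise or fall together until recombination separates them. Under strong selection or in small populations haplotypes are lost by hitchhiking and by drift, and a variant carried only by lost haplotypes becomes fixed for the other allele. Sequencing of pools reads such losses as allele frequencies of 0 or 1 along stretches of a chromosome.

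Control-only sites lay close together, and the following stretches of 30 bases show how dense they were. For each arm the stretch holding the most sites that were control-only in both experiments, with a P0 minor allele frequency of at least 0.1 in both, was taken after the data were seen. The sequences are those of the RefSeq copy of the Release 6 assembly, whose coordinates are those of dm6, on the plus strand and 5′ to 3′, and capitals mark the control-only positions.

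chrX:21585378-21585407: aAgtcGCcaTcaCacAgCgTgCatttCGaa
chr2L:964114-964143: CaTCttaGgGaactggaagtaGCaAgcttC
chr3L:1239121-1239150: ActctCcTActttaAaaGtaTaCaGaaaCC
chr3R:25023122-25023151: tcTaTAttaaAgtAaTagattgcTcGTtag

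The stretches on X, 2L and 3R are intergenic, and the one on 3L lies in an intron of galene. The X stretch held 11 control-only sites, with P0 frequencies from 27.3% to 35.7% and control frequencies from 15.7% to 26.2% in experiment 1. In experiment 2 the same 11 sites ranged from 12.05% to 16.9% in P0 and from 8.49% to 11.8% in control. The alternative alleles of this stretch had similar frequencies within a pool, at 64 to 71 reads per site in P0 of experiment 1 and 82 to 87 in P0 of experiment 2. On 2L the 9 marked sites went from 11.6% to 14.7% in P0 to 29.3% to 31.5% in control of experiment 1, and from 10% to 11.3% in P0 to 19.4% to 22.7% in control of experiment 2. On 3R the 9 marked sites went from P0 frequencies of 26.9% to 30% up to control frequencies of 39.1% to 43.7% in experiment 1, whereas in experiment 2 they went from 62.8% to 64.8% down to 53.6% to 56.3%. On 3L the 11 marked sites ranged more widely, from 17.1% to 34.0% in P0 of experiment 1 and from 11.8% to 22.1% in P0 of experiment 2. Around this 3L stretch, 121 of 125 neighbouring sites listed in all 3 tables within 5 kb were fixed for the reference allele in both selected pools of experiment 2, and 32 of 126 in experiment 1. On X such neighbours were 4 of 113 in experiment 1 and 34 of 97 in experiment 2, on 2L 53 of 123 and 32 of 111, and on 3R 6 of 68 and 21 of 49. Of the same neighbours, those fixed for the alternative allele in both selected pools were 0 in experiment 1 and 35 in experiment 2 on X. They were 38 and 19 on 2L, 30 and 4 on 3L, and 0 and 1 on 3R.

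Pooled over the arms, the alternative alleles of control-only sites were mostly the minor alleles of P0. Their median P0 frequency was 0.278 in experiment 1 and 0.309 in experiment 2, against 0.417 and 0.559 at sites listed in all 3 tables. Sites listed for control and assimilated flies only had medians of 0.348 and 0.321. Those listed for control and nonassimilated flies only had 0.307 and 0.414. On 3R of experiment 2 the 39179 control-only sites had a median of 0.512, above the 0.44 of sites listed in all 3 tables. In every other combination of arm and experiment the control-only median was the lower one. The middle 50% of control-only sites lay between 0.150 and 0.432 in experiment 1 and between 0.182 and 0.576 in experiment 2. The alternative allele was below 0.5 in P0 at 83.5% and 70.1% of them, against 57.5% and 44.8% of the sites listed in all 3 tables. The trait was shared with sites missing from 1 selected table only. The shares were 72.8% and 72.3% with control and assimilated flies listed, and 75.1% and 58.9% with control and nonassimilated flies listed. In the control pools the median frequency at control-only sites was 0.308 in experiment 1 and 0.297 in experiment 2. The allele still segregated in control flies, between 0.02 and 0.98, at 97.3% and 97.2% of control-only sites, against 77.1% and 69.6% of the sites listed in all 3 tables. Sites missing from 1 selected table only were close to this, with 96.6% and 94.8% of those listed for control and assimilated flies and 95.9% and 92.1% of those listed for control and nonassimilated flies. P0 held no reference read at 2.06% and 1.94% of control-only sites, against 11.8% and 17.3%.

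Read by frequency, the control-only share of control-listed sites was highest where the alternative allele was rare in P0 but present. It was 24.4% in experiment 1 and 23.9% in experiment 2 at P0 frequencies above 0 and up to 0.05, and 18.2% and 18.3% from there to 0.1. At frequencies above 0.2 and up to 0.3 it was 6.93% and 14.6%. It fell to 1.48% and 8.87% above 0.7 and up to 0.8, with a higher value of 13.2% in experiment 2 between 0.6 and 0.7. Where every P0 read carried the alternative allele the share was 1.29% and 1.40%.

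**Figure D1:**
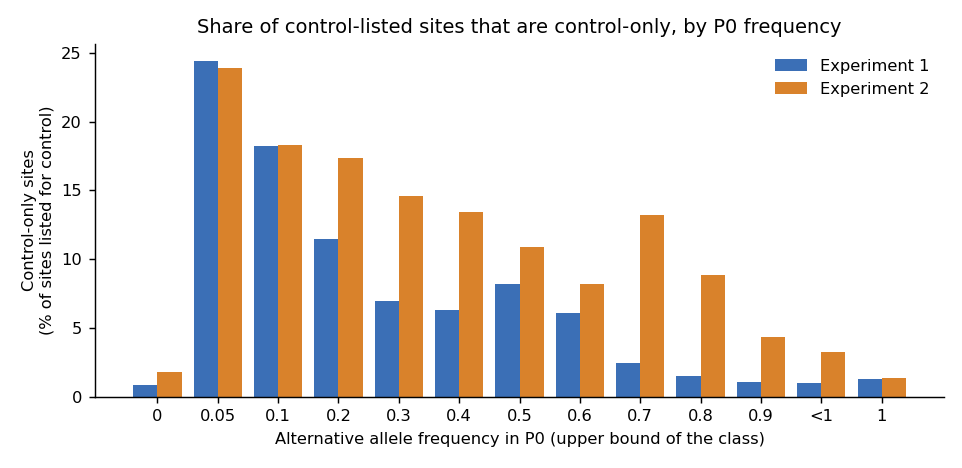
Control-only sites as a percentage of the sites listed for control (vertical axis), by the class of alternative allele frequency in P0 (horizontal axis, upper bound of each class), for both experiments. The bars are highest in the class up to 0.05 (24.4% and 23.9%) and lowest at 0 in experiment 1 (0.857%) and at 1 in experiment 2 (1.40%).

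Depth was alike in both kinds of sites. The median depth at control-only sites was 80 reads in P0 of either experiment, 77 in control of experiment 1 and 79 in control of experiment 2. At sites listed in all 3 tables it was 84 and 81 reads in P0 and 81 and 77 in control. At least 30 reads in both pools were found at 97.5% and 97.0% of control-only sites. The depth of the assimilated and nonassimilated pools at control-only sites is unknown, since the tables of those pools do not list these positions.

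Control-only sites went both up and down between P0 and control. Among those whose rarer allele reached 0.1 in P0, the mean change from P0 to control was 0.022 ± 0.156 (SD over 57944 sites) in experiment 1 and -0.035 ± 0.151 (92263 sites) in experiment 2. The median absolute change was 0.101 and 0.1003, against 0.112 and 0.129 at sites listed in all 3 tables. The alternative allele was higher in control than in P0 at 54.7% of these sites in experiment 1 and at 39.4% in experiment 2. The sign of the mean change differed between arms in experiment 2. Over all control-only sites of an arm it was -0.065 ± 0.157 on 3R and -0.038 ± 0.154 on 3L, but 0.017 ± 0.119 on X and 0.022 ± 0.128 on 2L (SD over sites). In experiment 1 it was positive on every arm. Bonferroni-adjusted p-values from a two-sided Fisher's exact test on the reads, taken over all sites of a control table, were below 1e-05 at 108 control-only sites in experiment 1 and at 101 in experiment 2. An unadjusted p below 0.05 was found at 31.6% and 32.7% of control-only sites. The called sites are 0.160% and 0.0985% of them, while 0.523% and 0.335% of all sites of the 4 arms in the control tables were called. Of all sites of experiment 1, 0.27% were called with a rise and 0.253% with a fall of the alternative allele, and of those of experiment 2, 0.163% and 0.173%. Of the 108 sites, 97 had a higher and 11 a lower frequency in control, and of the 101 sites 17 had a higher and 84 a lower one. Membership used the same reads, so these counts are given as a description only. The test compares 1 pool with 1 pool and leaves out the sampling of flies and the drift of populations.

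The site with the lowest p-value on each arm shows how far single sites could depart. On 3L of experiment 1 it lay at 3900563 in the coding sequence of Ubi-p63E, a polyubiquitin gene of tandem repeats. Its alternative reads were 83 of 302 for P0 (27.5%, 95% Wilson interval 22.8% to 32.8%) and 0 of 343 for control (upper bound 1.11%). Its depth was far above the median of 80 reads, and reads of near-identical repeats cannot be assigned with certainty. On 3R of experiment 1, a coding site of Mur89F, a mucin-related gene, at 17154876 had 44 of 105 reads in P0 (41.9%, interval 32.9% to 51.5%) and 0 of 98 in control (upper bound 3.77%). The Wilson intervals here and below cover counting error only, since reads are not independent molecules. An intergenic X site of experiment 1, at 1518097, had 0 of 31 alternative reads in P0 (upper bound 11.03%) and 36 of 36 in control (lower bound 90.4%). On X of experiment 2, an intergenic site at 660688 had 0 of 85 alternative reads in P0 (upper bound 4.32%) and 33 of 60 in control (55.0%, interval 42.5% to 66.9%). The 3L site of experiment 2, intergenic at 25154412, went from 0 of 59 (upper bound 6.11%) to 33 of 43 reads (76.7%, interval 62.3% to 86.8%). On 3R of experiment 2, an intronic site of mld at 24594689 had 45 of 45 alternative reads in P0 (lower bound 92.1%) and 0 of 46 in control (upper bound 7.71%). On 2L both experiments had their lowest p-value at the same site, described further on.

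Control-only sites stood closer to other listed sites than the sites listed in all 3 tables. The spacing of listed sites follows from the same tables as the rule, so it is given without a test. The median distance to the nearest site listed in any table was 5 bp in both experiments, against 25 bp. Within 5 bp of another listed site lay 55.3% and 56.1% of the control-only sites, against 22.9% and 22.2%, and 17.0% and 17.1% were directly adjacent to one, against 6.88% and 6.67%. The close spacing was shared with the sites missing from 1 selected table only. Within 5 bp lay 58.4% and 58.2% of the sites listed for control and assimilated flies, and 58.0% and 49.2% of those listed for control and nonassimilated flies. Only 0.342% and 0.610% of control-only sites were more than 100 bp from any listed site, against 12.4% and 13.6%. The nearest control-listed site was itself control-only for 84.2% and 86.7% of them. It was likewise of the same kind for 92.4% and 91.4% of the sites listed in all 3 tables. For sites listed for control and assimilated flies only the shares were 87.2% and 86.7%, and for control and nonassimilated flies only 86.9% and 74.5%. Joined over gaps of at most 50 bp, the control-only sites formed 24418 clusters in experiment 1 and 35836 in experiment 2, and 5.59% and 4.26% of the sites stood alone. Clusters of at least 5 sites held 31.5% and 32.5% of the control-only sites, over a median length of 58 and 59 bp. Of the sites listed in all 3 tables, joined in the same way, such clusters held 25.3% and 24.4%, over a median of 95 bp. Of those sites, 31.9% and 33.0% stood alone.

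Adjacent control-only sites had similar frequencies at short distances. Between adjacent control-only sites 1 to 5 bp apart the median difference in P0 frequency was 0.0051 in experiment 1 and 0.0050 in experiment 2, and 94.5% and 95.1% of the pairs differed by at most 0.05. For adjacent sites listed in all 3 tables at 1 to 5 bp the median difference was 0.0064 and 0.0044. It was thus the smaller one in experiment 2, while the shares within 0.05 were 79.5% and 80.3%. Sites this close can be counted on the same reads. At 6 to 50 bp 85.2% and 87.3% of control-only pairs differed by at most 0.05, against 48.1% and 52.8% of adjacent pairs listed in all 3 tables at the same spacing. Beyond 500 bp and up to 5000 bp the shares were 29.7% and 29.3%, against 18.0% and 22.9%. Whole clusters could span a wide range, as 32 sites over 228 bp of Cyp6a18 in experiment 1, whose P0 frequencies ran from 8% to 78.2%.

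The longest series of control-listed sites that were all control-only in experiment 1 held 37 sites over 319 bp of 2L, from 13641310 to 13641628 in the gene ics. Their P0 frequencies ranged from 19.4% to 57.4% with a median of 52.2%, and their control frequencies from 11.4% to 47.7% with a median of 35.8%. Experiment 2 listed 34 sites of this span for control, and 0 of them were control-only. In experiment 2 the longest series held 92 sites and ran over 18889 bp at the distal end of 3L, from 20150 to 39038, across mthl8, a gene of the methuselah-like receptors. Median depth there was 34 reads for P0 and 9 for control, far below the rest of the genome, and P0 frequencies ranged from 13.04% to 100%. Of the 96 sites of the same span that experiment 1 listed for control, 8 were control-only and 73 were listed in all 3 tables. The next longest series of experiment 2, 34 intergenic sites of X between 21958479 and 21963698, also had low depth, with a median of 12.5 reads for P0 and 9.5 for control.

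The reads of the selected pools at neighbouring sites were not used to choose the control-only sites. Neighbours were sites within 5 kb that were listed in all 3 tables and had a P0 minor allele frequency of at least 0.1, and fixed means a frequency no higher than 0.02 or no lower than 0.98. A control-only site had a median of 83 such neighbours in experiment 1 and 75 in experiment 2. In experiment 1, on average 49.99% of them were fixed in the assimilated and 58.3% in the nonassimilated pool, against 37.0% and 48.4% around sites listed in all 3 tables. In experiment 2 the shares were 79.1% and 85.2%, against 64.3% and 74.99%. The control pool of the same experiments had 7.04% and 10.2% of these neighbours fixed, against 9.34% and 11.9%. The same allele was fixed in both selected pools at 31.7% of neighbours in experiment 1 (SD over sites 20.2) and at 69.4% in experiment 2 (SD 32.8), against 19.0% and 48.2%. Neighbouring sites are linked and control-only sites share neighbours, so these means carry no test of the difference.

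In both experiments the difference was larger for the reference allele than for the alternative allele. Around control-only sites 23.2% of neighbours in experiment 1 were fixed for the reference allele in both selected pools and 8.52% for the alternative allele, against 12.9% and 6.06% around sites listed in all 3 tables. In experiment 2 the values were 41.1% and 28.3%, against 26.0% and 22.2%. To compare alleles that could belong to the same founder haplotypes, neighbours were then restricted to those whose P0 frequency differed from that of the site by at most 0.05. Of these matched neighbours, 53.9% around control-only sites of experiment 1 were fixed for the reference allele in assimilated flies, 58.9% in nonassimilated flies and 45.1% in both. Around sites listed in all 3 tables the values were 23.1%, 27.4% and 12.6%. In experiment 2 they were 73.6%, 76.5% and 70.8%, against 34.3%, 38.0% and 27.1%. Matched neighbours fixed for the alternative allele in both pools were 2.87% and 10.4% around control-only sites, against 5.82% and 22.4%.

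Sites missing from 1 selected table only gave the counterpart. Around sites listed for control and assimilated flies but not for nonassimilated flies, matched neighbours were fixed for the reference allele in assimilated flies at 14.9% and 15.1% in experiments 1 and 2, but in nonassimilated flies at 51.2% and 67.8%. Around sites listed for control and nonassimilated flies but not for assimilated flies, the shares were 54.7% and 61.1% in assimilated and 18.3% and 15.6% in nonassimilated flies. In both experiments the higher value was found in the pool whose table did not list the site.

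**Figure D2:**
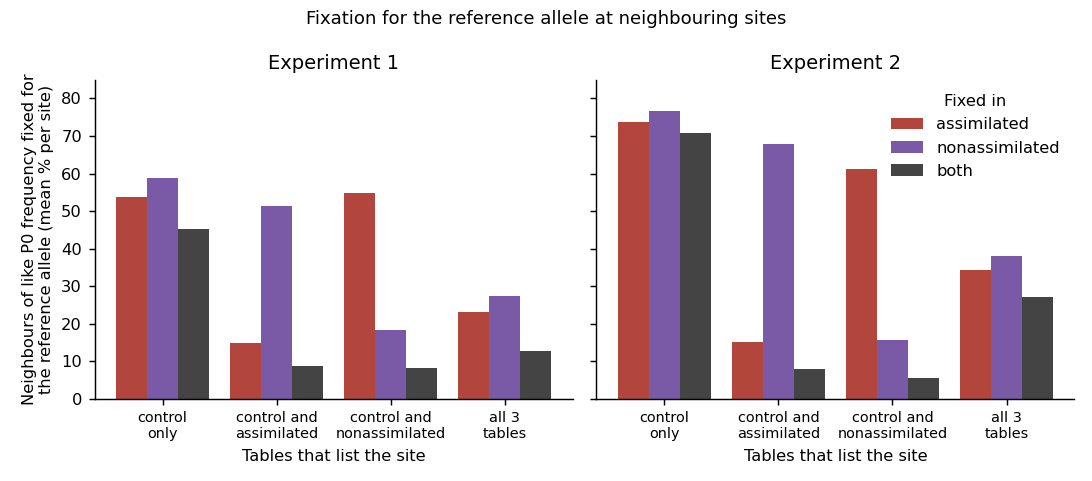
Mean percentage of matched neighbours (within 5 kb, P0 frequency within 0.05 of the site) fixed for the reference allele in assimilated flies, in nonassimilated flies and in both (bars), around sites grouped by the tables that list them. Control-only sites reach 45.1% and 70.8% for both pools, against 12.6% and 27.1% for sites listed in all 3 tables.

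Sites without alternative reads in the selected pools were also listed. Among the sites listed in all 3 tables, 117313 in experiment 1 and 161861 in experiment 2 had no alternative read in either selected pool. Of these, 8.73% and 7.84% lay within 5 bp of another listed site, and their median distance to one was 37 and 40 bp. Spacing and neighbours were therefore read together, for control-listed sites whose rarer allele reached 0.1 in P0 and that had at least 5 matched neighbours, 791297 in experiment 1 and 654387 in experiment 2. Where at least 90% of the matched neighbours were fixed for the reference allele in both selected pools and the nearest listed site was 1 to 5 bp away, 68.0% of 5808 sites in experiment 1 and 78.5% of 27712 sites in experiment 2 were control-only. At 6 to 10 bp the shares were 53.5% and 65.8%, at 11 to 50 bp 10.6% and 16.1%, and over 50 bp 0.173% and 0.268%. With 0% of the matched neighbours fixed in this way, the shares at 1 to 5 bp were 2.03% and 2.01%. Shares of 46.0% and more were found only in the classes with both a listed site within 10 bp and at least 50% of matched neighbours fixed. What the authors' calling and filtering did with closely spaced variants is not stated in the sources used here, and its part in the absence of these sites was not tested.

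**Figure D3:**
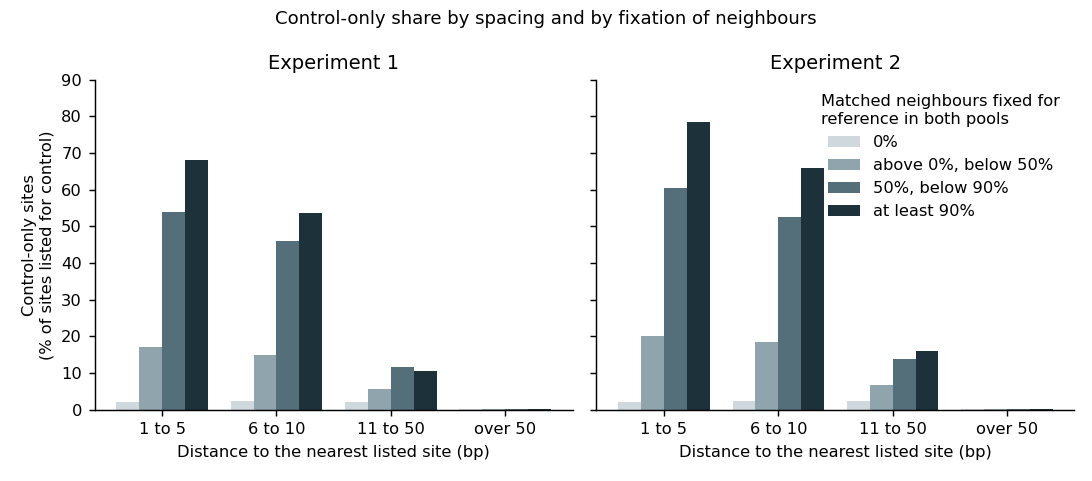
Control-only sites as a percentage of control-listed sites (vertical axis), by the distance to the nearest site listed in any table (horizontal axis, bp) and by the percentage of matched neighbours fixed for the reference allele in both selected pools (shades). The share reaches 68.0% and 78.5% at 1 to 5 bp with at least 90% of neighbours fixed, and is at most 0.333% beyond 50 bp in every class.

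Beyond 10 bp, the fixation of neighbours declined with distance from control-only sites but remained visible at the largest distances read. Counted over all pairs of a site and a neighbour, 29.5% of neighbours 11 to 100 bp from control-only sites of experiment 1 were fixed for the reference allele in both pools, 25.2% beyond that up to 1000 bp, 21.4% from there to 5000 bp and 18.6% between 50000 and 100000 bp. Around sites listed in all 3 tables the share went from 9.14% to 12.1%, 12.7% and 13.1%. The experiment 2 values were 46.0%, 42.4%, 37.5% and 34.5% around control-only sites, against 18.9%, 24.0%, 24.9% and 25.4%. At 1 to 10 bp the shares were lower around both kinds of sites. They were 13.02% and 26.4% around control-only sites, and 4.10% and 8.88% around sites listed in all 3 tables. In every distance class the neighbours were sites listed in all 3 tables.

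**Figure D4:**
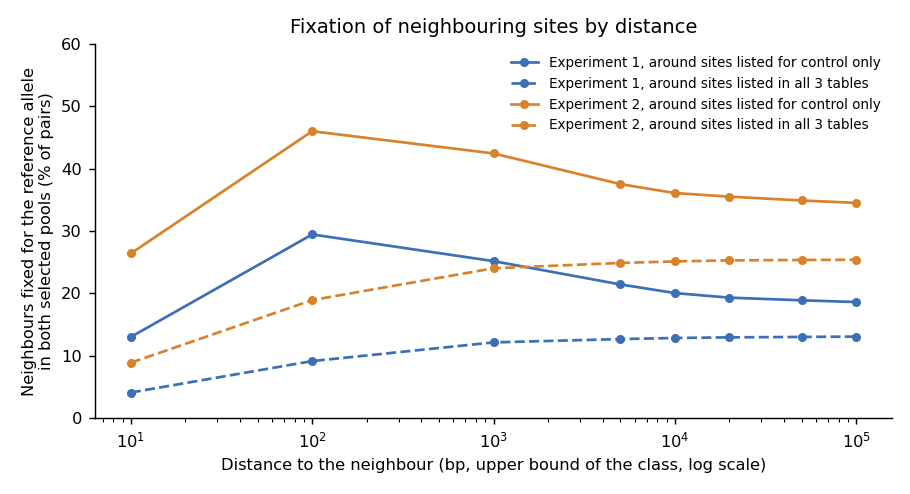
Percentage of neighbours fixed for the reference allele in both selected pools (vertical axis) by distance from the site (horizontal axis, bp, log scale), around control-only sites (solid) and sites listed in all 3 tables (dashed). Solid lines lie above the dashed line of the same experiment in every distance class, by the most at 11 to 100 bp.

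In windows of 100 kb the control-only sites were widespread and uneven. Of the windows with at least 50 control-listed sites, 1073 in experiment 1 and 1069 in experiment 2, only 29 and 22 held none. The control-only share of a window had a median of 3.75% in experiment 1 (lowest 0%, highest 26.4%) and of 7.94% in experiment 2 (lowest 0%, highest 40.1%). Windows in which at least 50% of control-listed sites were control-only numbered 0 in either experiment. At least 30% was reached by 0 windows in experiment 1 and 6 in experiment 2, and at least 20%, a bound added after the data were seen, by 13 and 100. The richest windows together holding 50% of all control-only sites were 164 in experiment 1 and 186 in experiment 2, or 15.3% and 17.4% of windows.

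Across windows the control-only share went with the fixation of the same allele in both selected pools. Fixation per window was measured at sites listed in all 3 tables with a P0 minor allele frequency of at least 0.1. Pearson's r was 0.73 and Spearman's rho 0.68 over 1073 windows of experiment 1, and 0.63 and 0.67 over 1069 windows of experiment 2. These are descriptions, since neighbouring windows are linked and the points share the same pools. Where under 5% of sites were fixed alike, 1.64% of the control-listed sites were control-only in experiment 1 and 2.25% in experiment 2. Between 20% and 50% fixed alike, the shares were 10.5% and 10.4%. In experiment 2, 257 windows had at least 95% of sites fixed alike, and 16.3% of their control-listed sites were control-only, with single windows from 0.699% to 40.1%. Within arms Spearman's rho ranged from 0.37 on 3R to 0.78 on X in experiment 1, and from 0.21 on 3R to 0.83 on 2L in experiment 2.

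**Figure D5:**
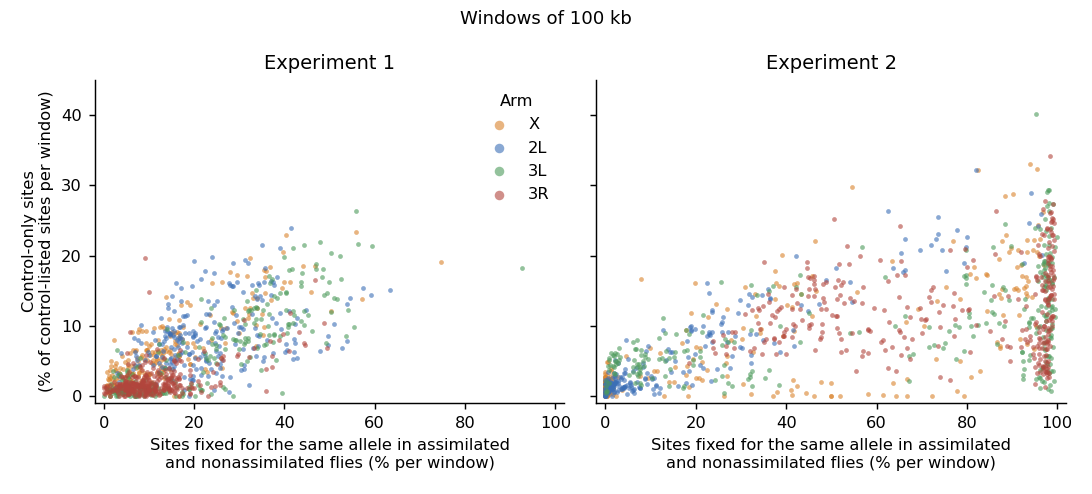
Each point is a window of 100 kb with at least 50 control-listed sites, placed by the percentage of sites fixed for the same allele in both selected pools (horizontal axis) and by the percentage of control-listed sites that are control-only (vertical axis), coloured by arm. Shares rise along the horizontal axis in experiment 1 up to 26.4%, and in experiment 2 the windows fixed at 95% or more spread from 0.699% to 40.1%.

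The 3 windows with the largest share in experiment 1 lay on 3L from 5500001 to 5600000 (412 of 1562 control-listed sites, 26.4%), on 2L from 11400001 to 11500000 (401 of 1672, 24.0%) and on X from 15300001 to 15400000 (234 of 1003, 23.3%). The 2L window contains salm, a zinc finger gene that positions wing veins. In that window 836 sites were listed in all 3 tables with a P0 minor allele frequency of at least 0.1. Of these, 41.5% were fixed for assimilated flies, 99.0% for nonassimilated flies and 9.09% for control. The control-only sites of the 2L window had mean frequencies of 0.166 ± 0.110 (SD over sites) in P0 and 0.153 ± 0.107 in control. In the 3L window the mean rose from 0.321 ± 0.166 to 0.425 ± 0.186. The same 2 windows held 24.7% and 27.3% control-only sites in experiment 2, while the X window held 1.28%. In experiment 2 the largest shares were on 3L from 1 to 100000 (109 of 272, 40.1%), which contains the low-depth series across mthl8, on 3R from 28100001 to 28200000 (428 of 1254, 34.1%) and on X from 19800001 to 19900000 (244 of 738, 33.1%). In the 3R window the sites restricted in the same way were fixed at 98.8% in the assimilated, at 98.98% in the nonassimilated and at 7.98% in the control pool. These windows held 3.47%, 1.88% and 1.71% in experiment 1. The longest run of neighbouring windows with at least 20% in experiment 2 spanned 7 windows of 2L, from 11100001 to 11800000, with 2519 of 9693 control-listed sites control-only (26.0%). The next runs spanned 6 windows of 3R, from 28800001 to 29400000 (1953 of 7902, 24.7%), and 5 windows of 2L, from 10500001 to 11000000 (1719 of 7534, 22.8%). In experiment 1 the longest run spanned 2 windows of X, from 15300001 to 15500000 (378 of 1704, 22.2%).

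The arms ranked differently in the experiments. In experiment 1 control-only sites were 9.18% of control-listed sites on 2L, 6.84% on 3L, 6.81% on X and 2.38% on 3R. In experiment 2 they were 14.0% on 3R, 10.3% on 3L, 8.41% on X and 7.42% on 2L. On 3R of experiment 1 an average of 31.3% of the neighbours of control-only sites were fixed in assimilated flies and 20.6% were fixed alike in both pools. On 3R of experiment 2 these values were 77.3% and 76.8%, against 72.8% and 72.3% around sites listed in all 3 tables, so the arm with the most control-only sites showed a small difference. Over 1069 windows compared between the experiments, Pearson's r of the control-only shares was -0.02 and Spearman's rho -0.09. On every arm of both experiments the share of control-only sites within 5 bp of a listed site lay between 46.5% and 57.7%, against 19.0% to 25.5% of the sites listed in all 3 tables.

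Genes with at least 50 control-listed sites numbered 2746 in experiment 1 and 2552 in experiment 2, and the median control-only share of a gene body was 3.29% and 6.90%. The largest shares of experiment 1 were in ics on 2L, from 13639447 to 13642602 (64 of 77 sites, 83.1%), and in acs on 3L, from 1971638 to 1974285 (45 of 62, 72.6%). Over the control-only sites of ics the mean frequency was 0.508 ± 0.101 in P0 and 0.377 ± 0.112 in control (SD over sites), and for acs 0.266 ± 0.040 and 0.294 ± 0.053. They were followed by CG4496 (44.8%), CG32971 (42.6%), c12.2 (39.2%), Cyt-c1, which encodes cytochrome c1 of the respiratory chain (39.0%), gce, a juvenile hormone receptor gene (39.0%), lncRNA:CR43753 (38.8%), Liprin-alpha, a scaffold of synaptic active zones (38.4%), and Atat, a tubulin acetyltransferase gene (37.4%). In Atat the mean frequency of 52 control-only sites was 0.288 ± 0.081 in P0 and 0.757 ± 0.059 in control, and in lncRNA:CR43753 that of 45 sites was 0.184 ± 0.042 and 0.415 ± 0.056.

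The largest shares of experiment 2 were in dind on 3R, from 18674626 to 18677539 (40 of 63 sites, 63.5%), CG32260 on 3L (61.0%), Gr33a, a gustatory receptor gene of 2L (58.8%), CG17097 (55.9%), Cht5, a chitinase gene of 3R (54.9%), lute (50.9%) and Apoltp, a lipid transfer protein gene of 2L (121 of 248, 48.8%). Tyler and Shawn on X, which share 1 span in the annotation, had 30 of 62 sites (48.4%), and CG12885 had 27 of 57 (47.4%). The mean frequency over the control-only sites of dind was 0.361 ± 0.058 in P0 and 0.174 ± 0.032 in control. In CG32260, CG17097, Cht5, Tyler, Shawn and CG12885, 100% of the neighbouring sites within the gene body were fixed in both selected pools. Most of these genes were not rich in control-only sites in both experiments. The share in the other experiment was 0% for acs, CG32971, c12.2 and gce of the first set and for Gr33a, CG17097, Cht5, lute, Tyler and Shawn of the second, but 47.3% for Cyt-c1, 41.8% for lncRNA:CR43753, 22.0% for CG32260 and 20.2% for CG4496.

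Control-only sites occurred at most genes of wing vein patterning, counted in the gene and 5 kb on either side. Of 35 such genes found, 29 had at least 1 control-only site in experiment 1 and 32 in experiment 2 (82.9% and 91.4%), against 68.6% and 75.4% of 11013 protein-coding genes. A gene with more control-listed sites can more readily hold at least 1. Such counts, here and for the lists below, were not adjusted for the number of sites per gene. The median share per gene with at least 50 control-listed sites was 4.34% and 4.37%, against 2.86% and 6.06% for all such genes. In experiment 1 the largest share was at salm (55 of 283 sites, 19.4%), followed by dpp, a BMP ligand gene (95 of 527, 18.0%), and S, which encodes the EGF ligand processing protein Star (77 of 531, 14.5%). In experiment 2 emc, a repressor of bHLH factors, had 63 of 194 (32.5%), against 10.4% in experiment 1, and salr, the paralogue of salm, had 131 of 474 (27.6%), against 8.64%. cv-d followed with 44 of 167 (26.3%), against 9.88%. At dpp the share in experiment 2 was 1.51% (8 of 531), and at N, the Notch receptor gene, it was 4.34% and 0.342%.

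Of 11 genes on the 4 arms that the study names in its search for candidates, 9 had control-only sites in experiment 1 and 11 in experiment 2 (81.8% and 100%, against the 68.6% and 75.4% of all protein-coding genes). Their median share was 3.87% and 10.5%, against 2.86% and 6.06%. Most of these genes lie on 3R, where the median share of a 100-kb window was 1.56% in experiment 1 and 11.5% in experiment 2. The 10.5% of experiment 2 was thus not above the level of that arm. Vajk1, a cuticle gene of 2L, had 46 of 198 (23.2%) in experiment 1 and 3 of 172 (1.74%) in experiment 2. The transcription factor gene tx on 3R had 22 of 287 (7.67%) and 82 of 258 (31.8%), and kibra, a Hippo pathway gene of 3R, had 6 of 560 (1.07%) and 128 of 553 (23.1%). The receptor tyrosine kinase gene Cad96Ca had 3 of 320 (0.938%) and 20 of 203 (9.85%). Among 19 heat shock protein genes, 14 and 16 had control-only sites (73.7% and 84.2%). The median share was 3.01% and 6.59% for those with at least 50 control-listed sites, near the 2.86% and 6.06% of all such genes. Hsp83, the gene of the chaperone Hsp90 and a member of both lists, had 27 of 119 (22.7%) in experiment 1 and 2 of 96 (2.08%) in experiment 2. DnaJ-1 of 3L, a co-chaperone gene, had 19 of 107 (17.8%) and 11 of 104 (10.6%). Neighbouring Hsp genes share sites, and the Hsp70 copies are near-identical, so their counts are uncertain.

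The experiment that did not choose a site gives reads that the rule did not use. Both experiments began with the same admixed population and had their variants called in the same way, so listing in the other experiment is not an independent measure. Of the control-only sites of experiment 1, 66.4% were listed for control in experiment 2, but 36.2% for assimilated and 39.4% for nonassimilated flies. For the control-only sites of experiment 2, 78.1% were listed for control in experiment 1, 55.3% for assimilated and 42.2% for nonassimilated flies. Among sites listed in all 3 tables of experiment 1 these shares were 77.9%, 73.8% and 73.0% in experiment 2, and in the reverse case 85.1%, 81.8% and 80.7%. Sites that were control-only in both experiments numbered 13961, which are 20.7% of the control-only sites of experiment 1 and 13.6% of those of experiment 2. They lay on 3L (6308), 2L (3713), 3R (3211) and X (729). Of the sites listed in all 3 tables of experiment 1, 3.30% were control-only in experiment 2, and of those listed in all 3 of experiment 2, 2.12% were control-only in experiment 1.

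Where the other experiment listed them for a selected pool, control-only sites were called at shares near those of all sites in 3 of 4 comparisons, and at a lower share in nonassimilated flies of experiment 2. With the same test, 6475 of 24448 control-only sites of experiment 1 were called in assimilated flies of experiment 2 (26.5%, against 25.9% of all sites of the 4 arms in that table) and 4283 of 26573 in nonassimilated flies (16.1%, against 21.3%). Of the control-only sites of experiment 2, 7571 of 56751 were called in assimilated flies of experiment 1 (13.3%, against 13.3%) and 9475 of 43240 in nonassimilated flies (21.9%, against 20.8%). Falls of the alternative allele were fewer than among all sites. The alternative allele had risen at 22.4% and fallen at 4.11% of the experiment 1 sites in assimilated flies of experiment 2, against 17.1% and 8.78% of all sites. In nonassimilated flies it had risen at 14.9% and fallen at 1.24%, against 14.4% and 6.94%. For the experiment 2 sites the shares in experiment 1 were 10.5% and 2.84% in assimilated flies, against 8.71% and 4.55%, and 19.1% and 2.82% in nonassimilated flies, against 14.3% and 6.52%. The sites read here are those that the other table lists, and the selected pools share their P0 pool, so the difference in direction was not tested. Matching between the experiments was by position, without a comparison of the alternative base. In control of the other experiment, 59 of 44795 sites (0.132%, against 0.335%) and 105 of 80135 sites (0.131%, against 0.523%) were called.

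Of the 13961 sites that were control-only in both experiments, 23 were called in control against P0 in at least 1 experiment, 16 in experiment 1 and 8 in experiment 2. A single site was called in both, at 9393551 on 2L in an intron of Shawl, a potassium channel gene. Its alternative reads were 37 of 37 in P0 (lower bound 90.6%) and 0 of 38 in control (upper bound 9.18%) in experiment 1, but 0 of 24 in P0 (upper bound 13.8%) and 37 of 37 in control in experiment 2. Sites were matched by position, and whether the alternative base was the same in both experiments was not examined. The sites with the lowest larger p-value on the other arms moved alike in both experiments, but none of them passed the threshold in either experiment. They were picked for low p-values in both experiments, from reads that the rule used, so their likeness is a description only. At 9280352 on 3L, in an intron of the glutamate receptor gene GluRIB, the frequency went from 12.3% (7 of 57 reads, interval 6.08% to 23.2%) to 62.8% (49 of 78, interval 51.7% to 72.7%) in experiment 1. In experiment 2 it went from 12.5% (10 of 80, interval 6.93% to 21.5%) to 51.4% (38 of 74, interval 40.2% to 62.4%). At 6847372 on 3R, in an intron of the Hox gene Scr, it went from 52.7% (39 of 74) to 11.9% (7 of 59) and from 46.0% (40 of 87) to 9.88% (8 of 81). At 14914831 on X, in an intron of the flotillin gene Flo2, it went from 60% (21 of 35) to 0% (0 of 26) and from 44.4% (24 of 54) to 3.90% (3 of 77).

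By annotation, control-only sites were less often coding than the sites listed in all 3 tables. Coding sequence held 7.16% of them in experiment 1 and 6.48% in experiment 2, against 13.03% and 12.9%. Introns held 51.4% and 50.9%, against 46.7% and 46.8%, and intergenic sequence held 34.2% and 35.6%, against 31.3% and 31.4%. Untranslated regions held 5.62% and 5.59%, against 7.13% and 7.06%. These shares are counts of linked sites and were not tested.

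The founding line D907 was sequenced in the same series and shows at which positions that founder carries an alternative allele. Positions were matched without comparing the bases, so the alternative allele of D907 need not be that of Mix. A share of 24.2% of the control-only sites of experiment 1 and 27.3% of those of experiment 2 were listed in any D907 table, against 56.8% and 53.3% of the sites listed in all 3 Mix tables. Sites listed for control and assimilated flies only had similar shares of 29.9% and 27.5%, and those listed for control and nonassimilated flies only had 29.3% and 49.97%. The alternative allele had a frequency of 0.98 or more in the D907 P0 pool at 21.3% and 16.2% of control-only sites, against 41.3% and 41.6%. Control-only sites that D907 tables listed had a median Mix P0 frequency of 0.475 and 0.482, and those they did not list 0.227 and 0.262. A site absent from the D907 tables was not read there, so the other founders' alleles cannot be told apart from these files.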

How the data were processed

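The deposited tables of the authors give read counts of the reference and alternative allele per site as bracketed pairs, not normalized for depth, for P0 and 1 derived pool. According to the submitters' processing notes, reads were aligned to dm6 with BWA and variants called with GATK. Versions, site filters and the treatment of closely spaced variants are not given in the sources used here. The authors' Fisher p-values, ranks and q-values in the same tables were not used. Arm 2R was not analysed here.

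Tables were joined on chromosome and position, and the alternative base was not compared between tables. The control pool was compared with P0, and selected pools with P0, with Fisher's exact test (two-sided) on read counts. P-values were Bonferroni-adjusted over every site of a table, on all its chromosomes, and called below 1e-05. Median depth was 77 to 84 reads, and each Wilson 95% interval was computed from the reads of its own site. Annotation came from the Ensembl gene set on Release 6, with intervals of 5 kb around listed genes. Symbols that differed were updated through RefSeq synonyms. Named are, per experiment, the 3 windows with the largest share, the longest runs, the 10 genes with the largest share, the site with the lowest p per arm and the site of lowest larger p per arm among those control-only in both. Members, gene lists and tests were chosen with earlier results of these data known. The matched neighbours, clusters and joint classes were chosen after seeing the data. Test code was tested on simulated data. Alternatives covered thresholds, depth, distances and window sizes. Software was SciPy 1.17.1, NumPy 2.4.6, Matplotlib 3.10.9, pandas 2.3.3, statsmodels 0.14.6 and Numba 0.67.0 under Python 3.11.15.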

Additional observations from a re-analysis of the deposited data

Results flagged for a closer look

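Among the sites that were control-only in both experiments and called in both, 1 site changed in opposite directions in the control pools, the intronic Shawl site at 9393551 on 2L described above. Its alternative allele went from 37 of 37 reads to 0 of 38 in experiment 1 and from 0 of 24 to 37 of 37 in experiment 2. Whether the alternative base was the same in both experiments was not examined. The difference between the experiments was not tested, and the depth of this site in all 4 pools was below the median of 77 to 80 reads of control-only sites.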

How the results depend on the processing

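With 1 pool per population, intervals and tests cover counting error only, and at the low-depth ends of arms single frequencies are imprecise. The numbers of control-only sites changed by less than 1.5 times when positions were matched within 5 bp, with at least 30 reads or with a P0 minor allele frequency of at least 0.1. The share of control-only sites in dense windows was 0% at a bound of 50% in both experiments. In experiment 2 it was 0.175% (2 windows) with windows of 50 kb, 1.60% (6) at a bound of 0.3 and 28.2% (100) at 0.2, the last added after seeing the data, which gave 5.54% (13) in experiment 1. The mean share of neighbours fixed in assimilated flies of experiment 1 became 54.0% within 1 kb, 48.0% within 20 kb, 48.2% with fixation at 0 or 1, 53.6% at 0.05 or 0.95, 43.1% for neighbours with a minor allele frequency of at least 0.2, and 49.1% for control-only sites more than 5 bp from other listed sites, an alternative added after seeing the data. For nonassimilated flies of experiment 1 these settings gave 61.7%, 56.4%, 56.0%, 63.2%, 55.9% and 57.6%, for assimilated flies of experiment 2 81.0%, 78.0%, 78.2%, 80.7%, 80.1% and 78.0%, and for nonassimilated flies of experiment 2 86.7%, 84.4%, 83.4%, 88.0%, 83.0% and 84.4%. With control-only sites of a P0 minor allele frequency of at least 0.1, also added later, the last 3 pools gave 59.1%, 80.1% and 86.4%. Calls of control against P0 at control-only sites numbered 44 in experiment 1 and 13 in experiment 2 at 1e-08, 14527 and 23137 with Benjamini-Hochberg adjusted p below 0.05, and 18 and 12 with reads scaled to 200 chromosomes. In the other experiment, Benjamini-Hochberg gave 18544 and 20005 calls for the experiment 1 sites in assimilated and nonassimilated flies and 42400 and 31774 for the experiment 2 sites, and 1e-08 gave 4481 for the experiment 2 sites in assimilated flies. The cause of these shifts was not tested. With the experiments as a replicate block (Cochran-Mantel-Haenszel), 34 sites control-only in both experiments were called, against 23. The alternative with the deposited q-values was not run, because columns of the authors' own comparison were not used.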

Other observations

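The end of 3L differed from the other regions rich in control-only sites. Only 24.8% of the control-only sites in its first 100 kb in experiment 2 lay within 5 bp of another listed site, while in the other windows with the largest shares 54.4% to 62.3% did. In that window 32.2% of the neighbouring sites were also fixed in control flies, against 0.357% to 9.09% in the other 5 windows. Fixation was read without a minimum depth, and the series of 92 control-only sites in this window had a median of 9 reads in control. The part of depth in the 32.2% was not tested. The control-only sites of the window had mean frequencies of 0.451 ± 0.215 (SD over sites) in P0 and 0.521 ± 0.295 in control.

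Compact clusters also differed in how far control moved from P0. In experiment 2, 36 control-only sites among 41 control-listed sites over 142 bp of unc-13-4A, on 3L from 7290274 to 7290415, had a median frequency of 22.4% in P0 and 8.18% in control. In experiment 1, 32 of 33 control-listed sites over 228 bp in Cyp6a18, a cytochrome P450 gene, on 3R from 27482725 to 27482952, were control-only, with a median of 39.5% in P0 and 16.3% in control. By contrast, 34 of 54 sites over 278 bp of 3R from 18851902 in experiment 2 had medians of 30.3% and 28.9%, and 35 of 36 sites over 222 bp of 3L from 7477529 went from 52.2% to 65.2%. These clusters were chosen after seeing the data.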
